A study of Mus musculus with 12 samples.

Results

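The mRNA levels of 3 E protein genes (Tcf3, Tcf4 and Tcf12) and of 3 genes of their Id inhibitors (Id1, Id2 and Id3) were followed in LSK cells, a marrow fraction sorted as negative for lineage markers and positive for Sca1 and Kit, which contains blood stem cells and early progenitors. The 6 genes were taken by name from a table of 55471 genes, of which 17063 had enough counts to be tested, and all 6 passed that filter. Libraries came in pairs from 6 groups, 12 in all. A single library is named by its group and the S tag of its column (dKO S6). Both the homeobox gene Hoxa9 and β-catenin (gene Ctnnb1) were targeted in dKO, Hoxa9 alone in HOXA9_KO and β-catenin alone in Bcat_KO, and WT was their control. The arginine methyltransferase Prmt1 was targeted in PRMT1_KO, with WT_PRMT1 as its control. All cells, controls included, were from mice that had received a primary transplant, taken 6 weeks after tamoxifen. The titles call the groups KO, whereas the genotype field calls them knockdowns. The labels do not state the age and sex of the mice, the Cre driver, the deleted exons or the host cells that remained. They also do not say if paired libraries stem from different animals, and p-values may then reflect only technical spread.

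E proteins are basic helix-loop-helix transcription factors that bind the E-box motif as dimers, with themselves or with tissue-restricted partners such as Tal1. Id proteins carry the helix-loop-helix dimer surface but no DNA-binding region, so an E protein held by an Id protein cannot bind DNA. In blood formation E proteins are best known for driving lymphoid commitment, and Id genes are classical targets of BMP and TGF-beta signalling.

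Library depth ranged between 17569709 and 40553891 counts. Hoxa9 stood at 8.92 to 9.21 CPM (read counts scaled to the size of the library) in dKO and 8.36 to 12.2 in HOXA9_KO, against 58.7 to 59.9 in WT. Ctnnb1 was less depleted, at 227 to 235 CPM in dKO and 267 to 276 in Bcat_KO, against 315 to 342 in WT, and Prmt1 was at 112 to 118 CPM in PRMT1_KO, against 283 to 292 in WT_PRMT1. None of the LSK markers Kit, Ly6a (Sca1), Cd34, Flt3 and Slamf1 was at 0 in any group, but their levels moved with the groups. In dKO Slamf1 was higher by 2.78 ± 0.25, Ly6a by 0.85 ± 0.11 and Kit by 0.52 ± 0.10, while Cd34 fell by 1.71 ± 0.14 and Flt3 by 2.15 ± 0.22. All 5 were called in the same directions in HOXA9_KO, but not all of these calls held with 1 library left out. That of Flt3 was lost without HOXA9_KO S4 or HOXA9_KO S5 (log2 change -1.69 to -1.36). A higher call was also lost without WT S1 or HOXA9_KO S5. In Bcat_KO Kit and Slamf1 were higher and Ly6a and Flt3 lower, with 1 higher and none or 1 lower once any 1 library was left out. In PRMT1_KO Slamf1 was higher by 3.20 ± 0.27, Ly6a by 1.61 ± 0.12 and Kit by 1.17 ± 0.10. Over all genes tested, 17.7% were called in dKO, 6.73% in HOXA9_KO, 17.2% in Bcat_KO and 32.5% in PRMT1_KO. The part of these shifts within the LSK gate in the results below was not tested. The Y-linked gene Ddx3y was at 60.6 to 93.5 CPM in the 4 knockout groups, against 0.792 to 2.87 in the 2 wild-type groups. Xist, the RNA behind X inactivation in females, stayed at no more than 0.758 CPM in dKO, HOXA9_KO and PRMT1_KO and at 11.2 to 21.9 in Bcat_KO, against 163 to 202 in the wild-type groups. The loss of each gene therefore cannot be told apart from the sex of the cells in any comparison of a knockout with its control, and a sex effect also stays in the comparison of dKO with the sum of the single knockouts. dKO, HOXA9_KO and Bcat_KO were all set against the same 2 WT libraries.

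Promoter sequence from RefSeq (GRCm38.p6) is shown for the E protein genes that were lower in the PRMT1_KO group, Tcf3 and Tcf12. RefSeq windows were matched for 4 of the 6 genes (Tcf3, Tcf12, Id2 and Id3), and a stretch of at least 100 bases upstream of the start and free of exons was left for Tcf3 and for 2 starts of Tcf12. Each is printed in the direction of transcription with the E-box, the motif that E proteins themselves bind, in capitals.
Tcf3, chr10:80433648-80433885, minus strand: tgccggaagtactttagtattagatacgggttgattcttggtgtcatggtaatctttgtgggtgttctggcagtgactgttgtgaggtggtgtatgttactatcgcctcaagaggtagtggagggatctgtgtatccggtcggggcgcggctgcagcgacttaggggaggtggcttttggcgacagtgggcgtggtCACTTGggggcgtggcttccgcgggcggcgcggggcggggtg
Tcf12, upstream start, chr9:72111872-72112069, minus strand: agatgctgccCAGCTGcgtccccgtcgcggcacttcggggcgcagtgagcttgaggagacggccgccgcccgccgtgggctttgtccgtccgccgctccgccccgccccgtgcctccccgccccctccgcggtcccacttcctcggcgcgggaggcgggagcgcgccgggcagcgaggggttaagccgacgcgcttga
Tcf12, downstream start, chr9:72111203-72111451, minus strand: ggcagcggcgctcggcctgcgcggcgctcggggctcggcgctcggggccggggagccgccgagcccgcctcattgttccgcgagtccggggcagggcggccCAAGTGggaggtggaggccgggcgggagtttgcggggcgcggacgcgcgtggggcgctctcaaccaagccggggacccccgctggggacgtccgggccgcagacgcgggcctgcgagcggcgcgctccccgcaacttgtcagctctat
Each stretch held 1 E-box (CANNTG, read on both strands). Of 32851 mouse promoter stretches taken at the same positions, 64.7% held an E-box at the Tcf3 positions, 58.7% at those of the upstream Tcf12 start and 66.1% at those of the downstream one. The GC box (GGGCGG, both strands) was found 2 times for Tcf3, 4 times at the upstream Tcf12 start and 2 times at the downstream one, and 31.0%, 24.3% and 32.6% of all stretches at those positions held at least 1. The E-box at the upstream Tcf12 start reads CAGCTG, a form that was not counted apart over all stretches. Another form that E proteins bind (CAGGTG) was absent from all 3 stretches on both strands. It stood in 14.3 to 17.2% of all stretches at those positions. A short element bound by BMP-activated Smad proteins (GGCGCC) was absent as well and stood in 7.04 to 9.52% of all stretches. The same held for the TCF/LEF motif (CTTTGAT), found in 2.62 to 3.20% of them.

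On GRCm38, Tcf3 (ENSMUSG00000020167), which encodes E2A, lies on chromosome 10 at 80409514 to 80433647 on the minus strand. Tcf4 (ENSMUSG00000053477), encoding E2-2, lies on chromosome 18 at 69343356 to 69689079 on the plus strand, and Tcf12 (ENSMUSG00000032228), encoding HEB, on chromosome 9 at 71842688 to 72111871 on the minus strand. The Id genes are far shorter. Id1 (ENSMUSG00000042745) spans 152736251 to 152737410 on chromosome 2, plus strand, Id2 (ENSMUSG00000020644) spans 25093799 to 25097140 on chromosome 12, minus strand, and Id3 (ENSMUSG00000007872) spans 136143497 to 136145755 on chromosome 4, plus strand. No other annotated gene shared exon bases with any of the 6.

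Per kilobase of exon (RPKM), Tcf3 was the most abundant of the 3 E protein genes in every library and made up 77.0 to 86.5% of their summed RPKM. In WT, mean RPKM was 69.8 ± 0.62 for Tcf3, 7.57 ± 0.37 for Tcf12 and 3.65 ± 0.02 for Tcf4 (SD, n = 2). The length used is the union of all annotated exons, 4039 bases for Tcf3 but 15529 for Tcf12 and 27382 for Tcf4, so the RPKM of Tcf12 and Tcf4 is low for any single transcript. Among the Id genes in WT, Id3 had 32.1 ± 0.02 RPKM, Id1 16.1 ± 3.40 and Id2 13.2 ± 1.91. The Id genes varied more over the 12 libraries than the E protein genes. The highest CPM was 5.98 times the lowest for Id1, 6.54 times for Id2 and 5.96 times for Id3, against 1.89, 2.13 and 1.51 times for Tcf3, Tcf4 and Tcf12.

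Tcf3 was lower in 3 of the 4 knockout groups. Tcf3 mRNA stood at 182 and 164 CPM in dKO, 200.03 and 238 in HOXA9_KO, 242 and 239 in Bcat_KO cells, and 284 and 280.1 in WT. Beside the Prmt1 control it stood at 172 and 173 CPM in PRMT1_KO, against 300.2 and 310.3 in WT_PRMT1. Every knockout library lay below every wild-type library, and the dKO and PRMT1_KO libraries were the lowest of all. The log2 change was -0.70 ± 0.09 in dKO (SE; adjusted p = 2.21e-05, edgeR quasi-likelihood test) and -0.83 ± 0.09 in PRMT1_KO (1.34e-06), and both calls held with any 1 library left out. In HOXA9_KO Tcf3 fell by 0.36 ± 0.09 (0.0155), but leaving out WT S1, WT S2 or HOXA9_KO S4 ended that call (log2 change between -0.50 and -0.24, adjusted p up to 0.241). In Bcat_KO the change was -0.23 ± 0.09 and missed the threshold (0.0804). Whether fewer cells of a type expressed the gene or each cell held less of its mRNA cannot be told apart in bulk libraries.

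Tcf4, which is needed by plasmacytoid dendritic cells, moved in opposite directions in Bcat_KO and dKO. Its level was 82.6 and 74.3 CPM in dKO, 92.9 and 89.9 in HOXA9_KO, 136 and 158 in Bcat_KO cells, and 100.4 and 99.6 in WT. Bcat_KO libraries were the only ones above WT here, and the dKO libraries were below all others. Tcf4 rose by 0.56 ± 0.09 in Bcat_KO (adjusted p = 0.000601), a call kept under every alternative run, and fell by 0.35 ± 0.09 in dKO (0.0125). Leaving out WT S1, WT S2 or dKO S7 ended the call of that fall (-0.44 to -0.29, adjusted p up to 0.132). The change was -0.13 ± 0.09 in HOXA9_KO (0.501). PRMT1_KO, at 142 and 153 CPM, overlapped with WT_PRMT1, at 146 and 152 CPM, and the change was -0.01 ± 0.09 (0.941).

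Tcf12 was the steadiest of the 6 genes. It had 107 and 122 CPM in dKO, 126 and 113 in HOXA9_KO libraries, 134 and 122 in Bcat_KO, against 113 and 122 in WT. These 4 groups overlapped or nearly touched, and their changes lay between -0.04 and 0.13 (adjusted p = 0.393 to 0.937). Only PRMT1_KO stood apart from its control, at 117 and 106 CPM against 153 and 160 in WT_PRMT1. There Tcf12 fell by 0.49 ± 0.10 (adjusted p = 0.000627), and the call held under every alternative.

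**Figure D1:**
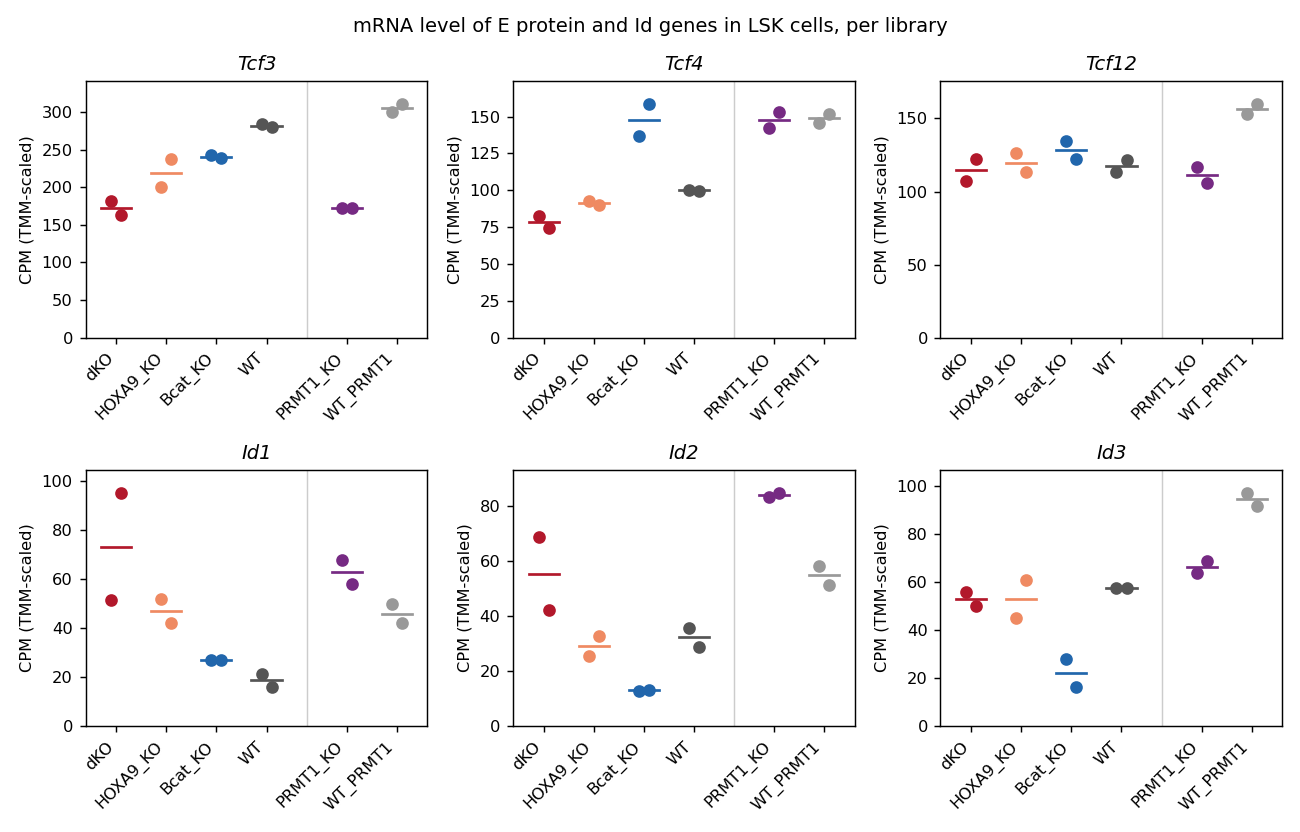
CPM (vertical axis, from 0) of the 6 genes in each library (points), by group, with the mean of the 2 libraries as a line. Tcf3 lies between 164 and 182 CPM in dKO, against 280.1 to 284 in WT, whereas Id1 lies between 51.4 and 95.2 CPM in dKO, against 15.9 to 21.5 in WT.

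Id1 rose in HOXA9_KO and in dKO. Id1 had 51.4 and 95.2 CPM in dKO, 51.8 and 42.1 in HOXA9_KO, 27.1 in both Bcat_KO libraries, and 21.5 and 15.9 in WT. All 6 knockout libraries exceeded both WT libraries, and dKO S7 was the highest of the 12. In dKO the rise was 1.97 ± 0.28 on the log2 scale (adjusted p = 0.00164), which is 3.92-fold. Between dKO S6 and dKO S7 the level differed more than within any other pair of Id1 libraries, yet the call held without either (1.45 to 2.34 over the fits without 1 library). In HOXA9_KO the rise was 1.33 ± 0.28 (0.0272), a call that leaving out any 1 of the 4 libraries ended (1.14 to 1.55, adjusted p up to 0.209). Bcat_KO gave 0.53 ± 0.28 (0.231). PRMT1_KO libraries had 68.0 and 58.0 CPM, against 49.8 and 42.2 in WT_PRMT1. They did not overlap, but the change of 0.45 ± 0.27 missed the threshold (0.257).

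Id2, which supports innate lymphoid and dendritic cell development, fell in Bcat_KO and rose in dKO and PRMT1_KO. Its mRNA was at 68.6 and 42.2 CPM in dKO, 25.4 and 32.9 in HOXA9_KO, 13.0 and 13.2 in Bcat_KO cells, and 35.6 and 29.0 in WT. Both dKO libraries were above WT, both Bcat_KO libraries were below it, and HOXA9_KO overlapped with it. The change in Bcat_KO was -1.30 ± 0.20 (adjusted p = 0.00113), and it was called in every alternative. The rise in dKO was 0.78 ± 0.20 (0.0161). It rested on dKO S6 and WT S2, since the value was 0.38 without dKO S6 and adjusted p reached 0.147 among the fits without 1 library. A fit of only dKO and WT lost it as well (0.0877). HOXA9_KO gave -0.15 ± 0.20 (0.788). Id2 was at 83.3 and 84.7 CPM in PRMT1_KO, against 58.1 and 51.5 in WT_PRMT1, with no overlap. It rose by 0.62 ± 0.20 (0.0296), and the call was lost when any 1 of those 4 libraries was left out (0.55 to 0.72, adjusted p up to 0.168).

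Id3, an Id gene induced by antigen receptor signalling in lymphocytes, was lower in Bcat_KO alone among the groups set against WT. Id3 stood at 55.8 and 50.3 CPM in dKO, 44.9 and 61.1 in HOXA9_KO, 28.1 and 16.3 in Bcat_KO cells, and 57.4 and 57.5 in WT. The Bcat_KO libraries were the lowest 2 of the 12. Id3 fell by 1.38 ± 0.23 in Bcat_KO (adjusted p = 0.00381), a call kept throughout, with -0.11 ± 0.22 in dKO (0.806) and -0.11 ± 0.22 in HOXA9_KO (0.870). PRMT1_KO libraries had 63.9 and 68.7 CPM, against 97.2 and 91.8 in WT_PRMT1. The groups did not overlap, and the change of -0.51 ± 0.22 missed the threshold (0.114), although 5 of the 8 other settings called it. Id4, the remaining gene of the Id family, was barely expressed. Its counts were 38 and 32 in dKO, 8 and 6 in HOXA9_KO libraries, 4 and 12 in Bcat_KO, 6 and 14 in WT, 2 and 0 in PRMT1_KO, and 2 and 7 in WT_PRMT1. The dKO libraries held the most, and none of the 9 comparisons called it.

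**Figure D2:**
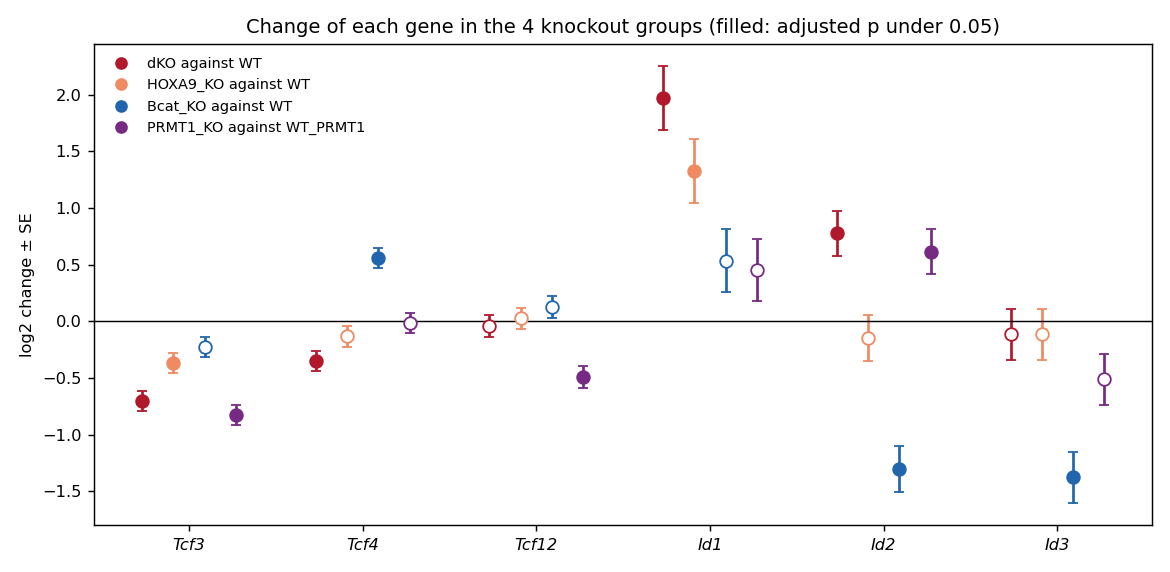
Log2 change (vertical axis) ± SE of the 6 genes in each knockout group relative to its control, with 2 libraries per group and filled points for adjusted p under 0.05. Tcf3 is below 0 in all 4 comparisons and Id1 is above 0 in all 4, while Id2 is at -1.30 in Bcat_KO and 0.78 in dKO.

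By comparison, 2 of the 6 genes were higher (Id1 and Id2) and 2 lower (Tcf3 and Tcf4) in dKO than in WT, where 17.7% of all genes tested were called (9.15% higher and 8.52% lower). In HOXA9_KO 1 was higher (Id1) and 1 was lower (Tcf3), against 6.73% of all genes (4.44% higher and 2.3% lower). In Bcat_KO 1 was higher (Tcf4) and 2 were lower (Id2 and Id3), against 17.2% of all genes (7.48% higher and 9.76% lower). PRMT1_KO had 1 higher (Id2) and 2 lower (Tcf3 and Tcf12) than WT_PRMT1, against 32.5% of all genes (16.6% higher and 16% lower). With 6 genes, 1 call is a large share of the set, so these shares are coarse. The median log2 change of the 6 genes was -0.08 in dKO, -0.12 in HOXA9_KO, -0.05 in Bcat_KO and -0.25 in PRMT1_KO, beside 0.01, 0.00, -0.04 and -0.03 over all genes tested.

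Set directly against the single knockouts, dKO differed from Bcat_KO in 5 of the 6 genes (28.1% of all genes were called) and from HOXA9_KO in 1 (1.75%, with 0.416% higher and 1.33% lower). Relative to Bcat_KO, Id2 was higher by 2.08 ± 0.21 (adjusted p = 1.77e-05), Id1 by 1.44 ± 0.28 (0.00554) and Id3 by 1.26 ± 0.23 (0.00299), with 16.2% of all genes called higher. Tcf4 fell by 0.91 ± 0.09 (3.31e-06) and Tcf3 by 0.48 ± 0.09 (0.000610), with 12% of all genes called lower. Of these 5 calls, 4 held without any 1 library, and that of Id1 was lost without Bcat_KO S3 or Bcat_KO S4 (adjusted p up to 0.0647). Relative to HOXA9_KO, Id2 alone was called, higher by 0.93 ± 0.20 (0.0362). That call was lost without HOXA9_KO S4 or dKO S6 (0.53 to 1.23, adjusted p up to 0.213), with limma-voom, without robust estimation and with only these groups in the fit (up to 0.364). Tcf3 was at -0.34 ± 0.09 (0.0576) in the same comparison, and Id1 at 0.64 ± 0.27 (0.389).

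The effect of targeting both genes was compared with the sum of the log2 changes of the single knockouts. This sum takes the WT libraries off one more time than the dKO change does. They are the only ones here that both Xist and Ddx3y type as female, while Bcat_KO had high Ddx3y with some Xist. A departure therefore cannot be told apart from an effect of sex. For Tcf4 the dKO value was lower than that sum by 0.78 ± 0.13 (departure -0.78, adjusted p = 0.00165), since Tcf4 was higher in Bcat_KO and lower in dKO. For Id2 the dKO value exceeded the sum by 2.23 ± 0.28 (0.000739) and for Id3 by 1.37 ± 0.32 (0.0304). These were 3 of 6 genes, where 8.43% of all genes were called (4.54% above the sum and 3.9% below it). The departures of Tcf4 and Id2 held without any 1 library, and that of Id3 was lost without 5 of the 8 (1.06 to 1.84, adjusted p up to 0.112). Those 5 were WT S1, WT S2, HOXA9_KO S4, dKO S6 and dKO S7, and a fit of only these groups lost it too (0.0636). Tcf3 departed by -0.11 ± 0.12 (0.624) and Id1 by 0.11 ± 0.39 (0.907), neither of which passed the threshold.

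dKO and PRMT1_KO, which the series title links, were each measured against their own control. The log2 change of Tcf3 in dKO minus that in PRMT1_KO was 0.12 ± 0.12 (adjusted p = 0.583), and that of Id2 was 0.16 ± 0.28 (0.770). Of the 6 genes 2 differed, where 15.7% of all genes were called (7.93% higher in dKO and 7.75% lower). Tcf12 was higher by 0.45 ± 0.13 (0.0282), and Id1 was higher by 1.52 ± 0.39 (0.0317). Neither call was robust to the libraries used. Tcf12 lost it without WT S1, dKO S7, PRMT1_KO S9, WT_PRMT1 S10 or WT_PRMT1 S11 (0.33 to 0.53, adjusted p up to 0.172). Id1 lost it without any 1 of the libraries of WT, PRMT1_KO and WT_PRMT1 (0.98 to 1.87, up to 0.140) and with only these groups in the fit (0.0951).

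The 2 wild-type groups also differed in these genes. In WT_PRMT1 4 of the 6 were higher than in WT and none was lower, where 7.58% of all genes were called, 3.71% higher and 3.87% lower. Tcf4 was higher by 0.57 ± 0.09 (adjusted p = 0.000642), which held without any 1 library. Tcf12 was higher by 0.41 ± 0.10 (0.0116), Id1 by 1.30 ± 0.28 (0.0264) and Id2 by 0.76 ± 0.20 (0.0351). The calls of Id1 and Id2 were lost without any 1 of the 4 libraries, and that of Tcf12 without WT S1, WT_PRMT1 S10 or WT_PRMT1 S11 (adjusted p up to 0.162 for Tcf12, 0.206 for Id1 and 0.282 for Id2). The gap between the 2 controls in Id1 was about as large as the rise in HOXA9_KO. Each knockout group is therefore set against its own control.

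Summed over the family, Id mRNA relative to E protein mRNA was highest in dKO and PRMT1_KO. The ratio of Id1, Id2 and Id3 to Tcf3, Tcf4 and Tcf12 in summed RPKM was 1.88 and 2.49 in dKO, 1.31 and 1.21 in HOXA9_KO, 0.602 and 0.519 in Bcat_KO cells, and 0.803 and 0.714 in WT. It was 2.33 and 2.23 in PRMT1_KO, against 1.35 and 1.17 in WT_PRMT1. No group overlapped with its control, and Bcat_KO was the only group below it. In summed CPM, which weights long genes more, the ratios were 0.473 and 0.521 in dKO, 0.291 and 0.309 in HOXA9_KO libraries, 0.133 and 0.109 in Bcat_KO, 0.230 and 0.204 in WT, 0.5 and 0.490 in PRMT1_KO, and 0.342 and 0.298 in WT_PRMT1. Each knockout group stood on the same side of its control on both scales, but whether the Id sum exceeded the E protein sum depended on the length used. The make-up of the Id sum differed too. Id1 was 42.8 to 64.4% of the Id RPKM in dKO, 43.3 to 55.7% in HOXA9_KO and 52.6 to 61.7% in Bcat_KO, against 23.8 to 28.4% in WT. In the Prmt1 pair it was 40.6 to 45.6% in PRMT1_KO, against 33.4 to 35.5% in WT_PRMT1, a smaller gap. Id3 was the leading Id gene in WT, at 49.2 to 55.6%. The ratios are descriptions, since the genes were chosen with earlier results of these data known.

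**Figure D3:**
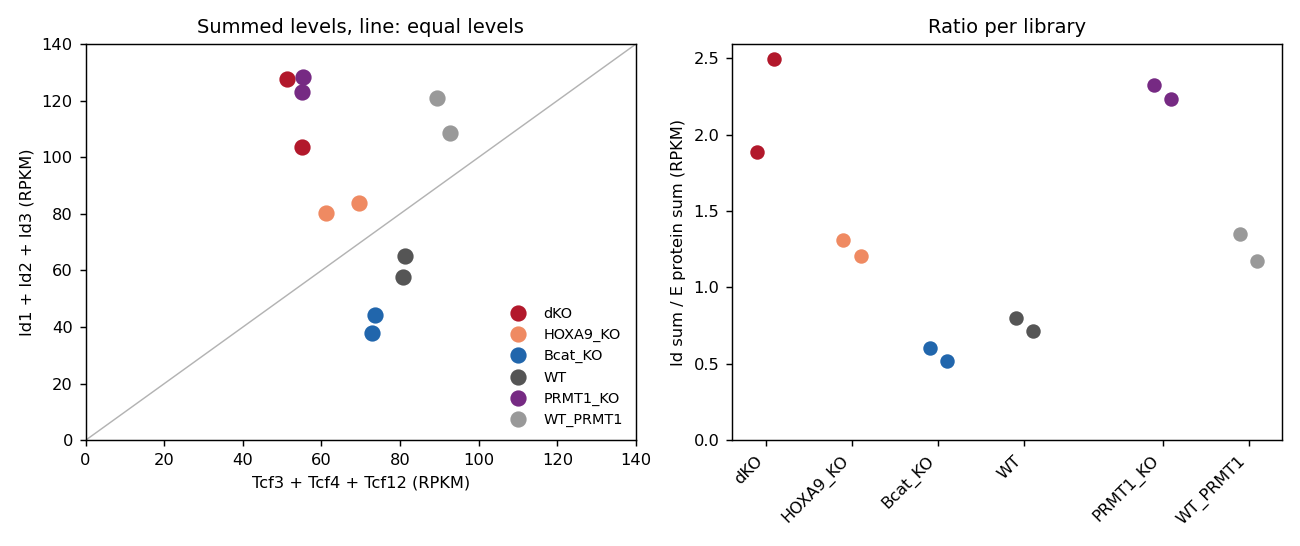
Left, summed RPKM of the Id genes against that of the E protein genes in each library, with a line of equal levels; right, their ratio by group, from 0. Ratios in dKO are 1.88 and 2.49, against 0.803 and 0.714 in WT, and Bcat_KO lies lowest at 0.602 and 0.519.

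E proteins pair with Tal1 in a complex that also holds Lmo, Ldb1 and Gata proteins, and 13 genes of this complex were all tested. In dKO 2 were higher and 1 lower than in WT (median 0.11), and in HOXA9_KO 2 were higher (0.13), beside 17.7% and 6.73% of all genes called and all-gene medians of 0.01 and 0.00. Gata2, a stem cell zinc finger factor, was at 441 and 554 CPM in dKO and 385 and 415 in HOXA9_KO, against 216 and 244 in WT. It rose by 1.11 ± 0.10 in dKO (adjusted p = 8.10e-07) and by 0.80 ± 0.10 in HOXA9_KO (6.29e-05). Tal1, the E protein partner itself, was at 150 and 158 CPM in dKO and 129 and 131 in HOXA9_KO, against 72.9 and 80.0 in WT. It rose by 1.01 ± 0.09 in dKO (1.01e-06) and 0.76 ± 0.09 in HOXA9_KO (4.37e-05). No library of either group overlapped with WT for these 2 genes, and their calls held without any 1 library. Lyl1, the closest relative of Tal1, fell by 0.37 ± 0.09 in dKO (0.00533; lost without WT S2, 0.130). In Bcat_KO 5 were higher and 1 lower (median 0.27), led by Runx1 at 0.69 ± 0.10 (0.000313), but only 1 or 2 were higher with any 1 library left out, and 17.2% of all genes were called. In PRMT1_KO 5 were higher and 3 lower than in WT_PRMT1 (median 0.24), beside 32.5% of all genes. Gata2 was at 220.2 and 224 CPM in PRMT1_KO, against 86.8 and 95.2 in WT_PRMT1, and rose by 1.29 ± 0.10 (4.28e-08). The corepressor Cbfa2t3 (Eto2) fell by 0.99 ± 0.12 there (5.86e-06).

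Of 22 lymphoid genes known to need E proteins, 21 were tested (Ptcra was not), and their median log2 change was -2.15 in dKO, -1.54 in HOXA9_KO, -3.09 in Bcat_KO and -1.47 in PRMT1_KO, beside -0.04 to 0.01 over all genes. Over all genes tested, 8.52% were called lower in dKO, 2.3% in HOXA9_KO, 9.76% in Bcat_KO and 16% in PRMT1_KO. Of the 21, in dKO 15 were lower and none higher, and in HOXA9_KO 4 were lower. In Bcat_KO 17 were lower, and in PRMT1_KO 12 were lower and 1 higher. With 1 library left out the lower counts were 10 to 16 in dKO, 2 to 4 in HOXA9_KO, 7 to 12 in Bcat_KO and 6 to 10 in PRMT1_KO. They were lowest without WT S2, HOXA9_KO S4, Bcat_KO S4 and either PRMT1_KO library. In Bcat_KO every 1 of the 4 libraries moved the count, to 8 without S3, 7 without S4, 12 without WT S1 and 9 without WT S2. Dntt, which adds nucleotides at antigen receptor joints, was at 174 and 94.7 CPM in dKO and 353 and 349 in HOXA9_KO, against 1381 and 1232 in WT. Both knockout groups were far below WT, with log2 changes of -3.28 ± 0.28 (adjusted p = 0.000390) and -1.90 ± 0.26 (0.00857; lost without WT S1 or either HOXA9_KO library, up to 0.0853). Flt3, a receptor of multipotent and lymphoid progenitors, was at 133 and 82.9 CPM in dKO, against 537 and 421 in WT, and fell by 2.15 ± 0.22 (0.000429). Rag1, a recombinase subunit, was at 1.02 and 2.88 CPM in Bcat_KO, against 36.5 and 39.1 in WT (-4.26 ± 0.60, 0.00352). It was at 0.490 and 1.25 CPM in PRMT1_KO, against 30.8 and 34.3 in WT_PRMT1 (-5.17 ± 0.66, 0.000620). Il7r, the interleukin 7 receptor, fell by 2.54 ± 0.28 in Bcat_KO (2.83e-05) and 1.61 ± 0.27 in HOXA9_KO (0.00151). Notch1 was the gene that rose in PRMT1_KO, by 0.58 ± 0.12 (0.000865), whereas it fell by 0.82 ± 0.12 in dKO (0.000101) and by 0.70 ± 0.12 in HOXA9_KO (0.00124). B cell marker genes moved with this list, and several belong to both. The sum of 10 B cell markers was 69.0 to 142 CPM in dKO, 161 to 307 in HOXA9_KO and 67.1 to 69.4 in Bcat_KO, against 538 to 640.1 in WT, and 80.1 to 80.4 in PRMT1_KO, against 739 to 748 in WT_PRMT1. Of these 10, 6 were lower in dKO, 0 in HOXA9_KO, 8 in Bcat_KO and 7 in PRMT1_KO, none was higher, and none was at 0 in any group. With 1 library left out these counts were 2 to 7 in dKO (2 without WT S2), 3 to 5 in Bcat_KO (3 without Bcat_KO S4) and 6 to 7 in PRMT1_KO. Their part in the result was not tested.

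BMP and TGF-beta pathway genes include known inducers of Id genes. Of 26 such genes 24 were tested (Bmpr1b and Smad9 were not). In dKO 7 were higher and none lower (median 0.44), in HOXA9_KO 6 and none (0.19), in Bcat_KO 4 and 3 (0.24), and in PRMT1_KO 8 and 2 (0.40). Over all genes 9.15% were higher in dKO, 4.44% in HOXA9_KO, 7.48% in Bcat_KO and 16.6% in PRMT1_KO, and the medians lay between -0.04 and 0.01. Without 1 library the higher counts were 6 or 7 in dKO, 1 to 6 in HOXA9_KO, 1 to 3 in Bcat_KO and 6 to 8 in PRMT1_KO, and the 2 lower calls in PRMT1_KO were lost without any 1 of the 4 libraries compared. The HOXA9_KO count dropped to 1 without WT S1, 3 without WT S2 and 2 without HOXA9_KO S4. The Bcat_KO count dropped to 2 without Bcat_KO S3 or WT S1 and to 1 without WT S2. Tgfbr3, the co-receptor betaglycan, was at 42.6 and 52.2 CPM in dKO, 44.2 and 25.7 in HOXA9_KO and 37.7 and 32.7 in Bcat_KO, against 9.05 and 12.8 in WT. All 6 knockout libraries were above WT, with log2 changes of 2.12 ± 0.29 (adjusted p = 0.000502), 1.68 ± 0.29 (0.00544; 0.0606 without WT S1) and 1.69 ± 0.29 (0.00330). In PRMT1_KO it was at 18.4 and 27.6 CPM, against 3.51 and 2.61 in WT_PRMT1 (2.92 ± 0.32, 3.43e-05). Eng, the co-receptor endoglin, rose by 0.61 ± 0.09 in dKO (7.97e-05), 0.46 ± 0.09 in HOXA9_KO (0.00284) and 0.72 ± 0.09 in PRMT1_KO (5.22e-06). Bmpr1a, a BMP type I receptor, was at 2.98 and 3.49 CPM in dKO and 2.95 and 1.33 in HOXA9_KO, against 0.105 and 0.139 in WT. Ski, a nuclear antagonist of Smad proteins, rose by 0.93 ± 0.13 in dKO (7.33e-05). The ligand Bmp2 was lower in Bcat_KO, at 0.572 and 1.04 CPM against 2.09 and 4.72 in WT, a call lost without Bcat_KO S3 or WT S2 (up to 0.183). Bmp4 had no counts in either Bcat_KO library and 0.628 and 0.278 CPM in WT.

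Tcf4 is a defining factor of plasmacytoid dendritic cells, so 10 markers of these cells were read beside it. Their summed level was 245 to 406 CPM in dKO, 309 to 593 in HOXA9_KO and 254 to 279 in Bcat_KO, against 473 to 574 in WT, and 854 to 954 in PRMT1_KO, against 2088 to 2118 in WT_PRMT1. Over all genes tested, 8.52% were called lower in dKO, 2.3% in HOXA9_KO, 9.76% in Bcat_KO and 16% in PRMT1_KO. Of the 10 markers, 3 were lower in dKO, 0 in HOXA9_KO, 7 in Bcat_KO (with 1 higher) and 6 in PRMT1_KO. Klk1 was at 0 in Bcat_KO and WT. With 1 library left out, 3 to 5 were lower in dKO (5 without dKO S6), 4 to 6 in Bcat_KO (4 without Bcat_KO S4 or WT S1) and 3 in PRMT1_KO, whichever of its libraries was missing. Siglech, a surface receptor of these cells, was at 0.889 and 1.84 CPM in Bcat_KO, against 16.2 and 11.3 in WT, and Spib, a transcription factor they need, was at 0.445 and 0.471 CPM in Bcat_KO, against 15.7 and 13.6 in WT. Tcf4 was high in the group where Siglech and Spib were lowest. Runx2 was the 1 marker higher in Bcat_KO, at 92.5 and 88.7 CPM, against 75.6 and 66.6 in WT (0.35 ± 0.11). By the list sum dKO reached below Bcat_KO, and Tcf4 was lowest in dKO. Whether Tcf4 follows these cells was not tested. In WT_PRMT1 the same markers were high along with Tcf4, with 6 of 10 called higher than in WT, beside 3.71% of all genes. Siglech was at 192 and 182 CPM there. The part of these markers in the Tcf4 difference between the 2 controls was not tested. In PRMT1_KO, where Tcf4 overlapped with WT_PRMT1, Siglech was at 42.3 and 32.6 CPM.

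**Figure D4:**
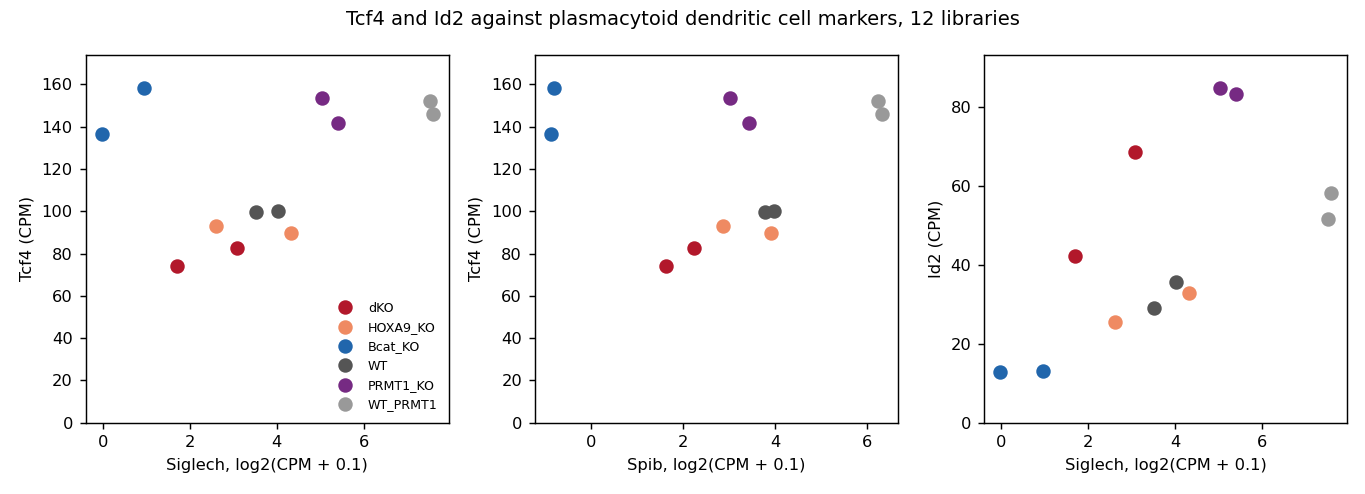
CPM of Tcf4 (left and centre) and Id2 (right) in the 12 libraries against Siglech or Spib on a log2(CPM + 0.1) axis, coloured by group. The Bcat_KO libraries have Tcf4 at 136 and 158 CPM with Siglech at 0.889 and 1.84 CPM, and Id2 at 13.0 and 13.2 CPM.

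Id2 is also expressed by innate lymphoid, T and dendritic cells. The sum of 12 T, NK and innate lymphoid markers was 122 to 210.0 CPM in dKO, 131 to 156 in HOXA9_KO and 154 to 159 in Bcat_KO, against 167 to 188 in WT, and 140.2 to 144 in PRMT1_KO, against 139 to 142 in WT_PRMT1. In Bcat_KO, where Id2 and Id3 were lowest, 7 of the 12 were lower and none higher, and Cd3e and Gzma were at 0. The number lower in Bcat_KO was 4 or 5 with 1 library left out. In dKO 2 were higher and 1 lower, in HOXA9_KO 1 was higher and 1 lower, and in PRMT1_KO 2 were higher and 3 lower. The higher call in HOXA9_KO was lost without any 1 library, and all calls in PRMT1_KO were lost without PRMT1_KO S9. Nkg7 held much of these sums, at 128 and 132 CPM in Bcat_KO and 106 and 114 in WT. In PRMT1_KO Nkg7 was at 89.4 and 91.7 CPM, against 46.1 and 48.5 in WT_PRMT1. The near-equal sums of that pair therefore do not show unchanged markers. The sum of 8 conventional dendritic cell markers was 331 to 800.1 CPM in dKO, 365 to 562 in HOXA9_KO and 410.3 to 424 in Bcat_KO, against 832 to 916 in WT, and 671 to 688 in PRMT1_KO, against 1551 to 1601 in WT_PRMT1. It was below the control in all 4 knockout groups, whereas Id2 rose in dKO and PRMT1_KO and fell in Bcat_KO. Flt3, listed above among the LSK markers, is 1 of these 8 and a large part of the sum. WT libraries held 537 and 421 CPM of Flt3, but dKO libraries only 133 and 82.9. HOXA9_KO and Bcat_KO were also called lower for Flt3. The low sums of these 3 knockout groups therefore do not by themselves show a fall of the other markers. In PRMT1_KO Flt3 was not lower (log2 change 0.14 ± 0.21). Of the 8, 1 was higher (Clec9a) and 1 lower (Flt3) in dKO (median log2 change 0.37), and 5 were lower in PRMT1_KO. Megakaryocyte and platelet markers had a summed level of 1529 to 1625 CPM in dKO and 994 to 1037 in HOXA9_KO, 521 to 522 in Bcat_KO, against 314 to 353 in WT, and 1142 to 1186 in PRMT1_KO, against 179 to 181 in WT_PRMT1. Of 9 such markers tested, 7 were higher in dKO, 6 in HOXA9_KO, 4 in Bcat_KO (1 without WT S1) and 8 in PRMT1_KO, and none was lower; without WT S2 the HOXA9_KO count was 4. Erythroid markers summed to 134 to 401 CPM in dKO, 166 to 261 in HOXA9_KO and 28.2 to 40.1 in Bcat_KO, against 298 to 1207 in WT, and to 63.8 to 64.3 in PRMT1_KO, against 569.9 to 636 in WT_PRMT1. Of these 10, 7 were lower in Bcat_KO (3 without Bcat_KO S4 and 4 without Bcat_KO S3) and 5 in PRMT1_KO (1 or 2 without any 1 library), and none in dKO or HOXA9_KO. Of the same 10 erythroid markers, 3 were called higher in PRMT1_KO and 1 in dKO, which was Epor (1.48 ± 0.32). The call in dKO was lost without WT S2 or dKO S6. Fewer were higher in PRMT1_KO without PRMT1_KO S9, WT_PRMT1 S10 or WT_PRMT1 S11. Endothelial and stromal markers, from cells that also express Id1 and Id3, summed to 139 to 145 CPM in dKO, 114 to 145 in HOXA9_KO and 129.8 to 143 in Bcat_KO, against 123 to 141 in WT. In the Prmt1 pair they summed to 186 to 199.8 CPM in PRMT1_KO, against 425 to 698 in WT_PRMT1, and 5 of 12 were lower and 2 higher (2 lower without PRMT1_KO S9 or WT_PRMT1 S10, 3 without WT_PRMT1 S11). The sum was also higher in WT_PRMT1 than in WT, with 3 of 12 called higher, beside 3.71% of all genes. Pecam1 made up most of the sum in WT, at 87.0 and 81.1 CPM. The near-equal sums of dKO, HOXA9_KO, Bcat_KO and WT therefore do not show unchanged markers. Of the 12, 2 were higher and 2 lower in dKO, 2 were lower in HOXA9_KO, and 1 was higher and 3 lower in Bcat_KO. In WT_PRMT1 Col1a1 was at 144 and 313 CPM and Col1a2 at 111 and 216, but Col3a1 at 0.566 and 0.360. The endothelial gene Cdh5 was at 28.75 and 27.0 CPM there, against 3.97 and 3.01 in WT. Kdr was at 2.49 and 1.53 CPM in WT_PRMT1, against 2.51 and 2.41 in WT. Granulocyte markers summed to 1622 to 2794 CPM in dKO, 230 to 1391 in HOXA9_KO and 1108 to 1155 in Bcat_KO, against 772 to 2079 in WT. In the Prmt1 pair they were at 4028 to 4245 CPM in PRMT1_KO, against 1182 to 1284 in WT_PRMT1. Of these 10, 4 were lower in Bcat_KO, where Ltf, Retnlg and Mmp9 were at 0. In PRMT1_KO 1 was higher, and none was called in dKO or HOXA9_KO. Leaving out any 1 library compared ended these calls. Beside these marker counts, 9.15% of all genes were called higher and 8.52% lower in dKO, and 4.44% and 2.3% in HOXA9_KO. The shares were 7.48% and 9.76% in Bcat_KO, and 16.6% and 16% in PRMT1_KO. The part of the cells that these lists mark in the changes of Id1, Id2, Id3 and Tcf3 was not tested.

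Ranked among 11157 genes by likeness over the 12 libraries (root mean square difference of centred log2 CPM, lower is more alike), the genes nearest to Tcf3 were Hmgb1 (0.0757) and Sae1 (0.0761). Nearest to Tcf4 were Myo5a (0.131) and Gpr171 (0.141), and nearest to Tcf12 were Gbf1 (0.0961) and Hps5 (0.0990). The Id genes had no neighbours as close. Id1 was nearest to Socs3 (0.294) and Ptgs2 (0.313), Id2 to Nfil3 (0.344) and Ctss (0.350), and Id3 to Ccne1 (0.277) and Rab4b (0.286). For scale, the SD of the member itself over the libraries was 0.34 for Tcf3, 0.40 for Tcf4, 0.19 for Tcf12, 0.74 for Id1, 0.91 for Id2 and 0.70 for Id3. Among the 6 genes themselves, the distance was smallest between Tcf3 and Tcf12 (0.252) and largest between Tcf3 and Id2 (1.03). The measure is small for genes that vary little, and 0.252 is above the SD of Tcf12 itself (0.19). It therefore does not show a shared pattern of Tcf3 and Tcf12. Id2 and Id3 were the most alike pair of Id genes (0.518).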

How the data were processed

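The deposited table holds the authors' counts per gene. The submitters' processing notes name Trim Galore 0.6.6, STAR 2.7.6a, featureCounts and the build GRCm38 (mm10). Per the labels, the RNeasy Plus Micro kit gave the RNA and a directional NEB Ultra II kit the libraries. Annotation release, strand setting and treatment of read pairs: not given in the sources used here. Of the nonzero values 67.1 to 75.9% were even, so each pair was probably counted as 2. The gene lengths deposited by the authors in the same table (in bases) were used for RPKM.

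Depth was 17569709 to 40553891 counts. Identifiers were named from GENCODE M21 (55230 matched, 241 not). In edgeR 4.0.16 (R 4.3.3), filterByExpr with a minimum count of 10 left 17063 genes, and TMM factors scaled the libraries. A quasi-likelihood model with 1 mean per group and robust estimation was fitted to all 12 libraries, and 9 comparisons were tested. Genes were called at a Benjamini-Hochberg adjusted p, over all genes tested, under 0.05. The SE equals |log2 change| over the root of F. The robust option was chosen after results without it had been seen, because it gave the number of calls of an earlier analysis of these data. The members and gene lists were chosen with earlier results of these data known. Beyond the 6 genes, the knocked-out genes and Id4, the text names up to 4 list genes with the smallest p per list and knockout comparison, marker genes, and 2 genes of closest likeness, taken among genes at a mean of at least 2 CPM. The likeness used log2 CPM with a prior count of 2. Libraries are called by the S tags of the column names, which do not give the replicate numbers.

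Alternatives were RLE size factors, library-size scaling, no filter, a mean of at least 5 CPM, DESeq2 1.42.0, limma-voom (limma 3.58.1) with quality weights, no robust estimation, only the groups compared, and leaving out each library. The analysis was tested on simulated counts. Figures were drawn with matplotlib 3.10.9.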

Additional observations from a re-analysis of the deposited data

Results flagged for a closer look

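For 3 genes the change in dKO differed from the sum of the changes in the single knockouts by a test of that difference (edgeR quasi-likelihood test). Tcf4 departed by -0.78 (adjusted p = 0.00165), with 82.6 and 74.3 CPM in dKO, against 136 and 158 in Bcat_KO and 100.4 and 99.6 in WT. Id2 departed by 2.23 (0.000739), with 68.6 and 42.2 CPM in dKO, against 13.0 and 13.2 in Bcat_KO and 35.6 and 29.0 in WT. Id3 departed by 1.37 (0.0304), a call lost without any 1 of 5 libraries (adjusted p up to 0.112). For 2 genes the change in dKO differed from the change in PRMT1_KO by the same kind of test. Tcf12 differed by 0.45 (0.0282) and Id1 by 1.52 (0.0317), and each call was lost without at least 5 of the 8 libraries. These tests share the 2 WT libraries. By Xist and Ddx3y, the WT libraries are female-typed and the dKO and HOXA9_KO libraries male-typed. Bcat_KO libraries had Ddx3y at 60.6 to 62.3 CPM but also some Xist, at 11.2 to 21.9. The departures of Tcf4, Id2 and Id3 therefore cannot be told apart from an effect of sex.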

How the results depend on the processing

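Of the 54 results (6 genes in 9 comparisons) 27 were called. Of these, 14 were called in every alternative run, 13 were lost without at least 1 library, and 4 were lost under another setting, while 8 uncalled results were called under another setting. Of 696 alternative values 24 had the other sign, none of them for a called result. With 1 library left out, the number of the 6 genes called was 2 to 3 in dKO against WT (4 with all libraries), 0 to 1 in HOXA9_KO (2), 3 in Bcat_KO (3), 2 in PRMT1_KO (3), 1 to 2 in dKO against HOXA9_KO (1), 4 to 5 in dKO against Bcat_KO (5), 2 to 3 for departure from additivity (3), 0 to 3 for dKO minus PRMT1_KO (2) and 1 to 2 for WT_PRMT1 against WT (4). PRMT1_KO had 5 with no filter and 5 with only the groups compared. dKO against HOXA9_KO had 2 with library-size scaling, 3 with no filter, 2 with DESeq2, and 0 with limma-voom, without robust estimation and with only the groups compared. The cause was not tested, except that fewer samples enter the fits without a library and of only the groups compared. Over all genes, calls with 1 library left out numbered 1698 to 2939 in dKO (3016 with all), 521 to 948 in HOXA9_KO (1149), 1312 to 2115 in Bcat_KO (2942), 3977 to 4136 in PRMT1_KO (5554), 168 to 607 in dKO against HOXA9_KO (298), 3237 to 3851 in dKO against Bcat_KO (4802), 670 to 1388 for departure from additivity (1439), 1842 to 2735 for dKO minus PRMT1_KO (2676) and 638 to 676 for WT_PRMT1 against WT (1294). Other settings gave 3 to 623 genes in dKO against HOXA9_KO, 3041 to 5494 in dKO against Bcat_KO, 744 to 2158 for departure from additivity and 1136 to 2294 for WT_PRMT1 against WT. Library-size scaling moved the median of all genes to -0.17 in PRMT1_KO and 0.14 for dKO minus PRMT1_KO. Without the filter, which brings in genes with few counts, that median was 0.44 for departure from additivity and -0.14 in Bcat_KO. No paired analysis was possible because the columns carry no replicate number. Every group has 2 libraries, and read pairs were probably counted as 2, so low counts such as those of Id4 hold fewer fragments than they show.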
